A study of Mus musculus with 30 samples.

Results

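Interleukin receptor genes were measured in 30 mouse tumors as every gene of the expression table whose symbol begins with Il, a number and the letter r. The rule took 34 of the 18975 genes, without use of their values. It gathered 7 chains of the IL-1 receptor family, 7 of the common gamma chain family, 6 of the IL-6 and IL-12 family, 5 of the class II (IL-10) family, 5 of the IL-17 receptor family and 3 alpha chains for IL-3 and IL-13. The remaining member, Il1rn, is not a receptor: it encodes the secreted antagonist that occupies the IL-1 receptor without signalling.

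The samples were subcutaneous B16F10 tumors, a transplantable melanoma line of C57BL/6 origin, grown in female C57BL/6 mice. Tumor cells were injected into the flank, and antibody was given from 7 days on, 2 times per week. Tumors titled WT carried the genotype label ARE-del +/+ and are taken here as wild type. Tumors titled HET came from mice labelled ARE-del +/-. The allele belonged to the host, and all tumors shared the same injected line. In each genotype mice received control rat IgG2A, anti-PD1, agonist anti-CD40 or both antibodies. Anti-PD1 and anti-CD40 were each given at 0.25 mg, and no dose is recorded here for the control IgG. WT tumors numbered 5 with IgG, 4 with anti-PD1, 3 with anti-CD40 and 3 with the combination, and HET tumors numbered 4, 3, 4 and 4. The labels do not say that replicates came from separate animals, so the p-values speak only of variation among these libraries, which may be technical.

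Interleukin receptors are built from chains that bind a ligand and chains that pass the signal on. Receptors of the cytokine type act through JAK kinases and STAT factors, those of the IL-1 family through the MyD88 adaptor, and those of the IL-17 family through the Act1 adaptor. Many chains are shared: the common gamma chain serves IL-2, IL-4, IL-7, IL-15 and IL-21, and decoys such as Il1r2 bind a ligand without signalling. In a solid tumor, leukocytes are a main source of gamma chain receptors, whereas several IL-17 and class II chains are also made by epithelial and other non-immune cells. In bulk tissue, more cells of a type and more RNA per cell cannot be told apart.

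Libraries held 17.6 M to 36.0 M reads (M, 10 to the power of 6) in the table, with a median of 24.9 M. CPM are reads per M of an effective library size, recovered from the deposited values. On this scale 1 read was worth 0.0276 to 0.0596 CPM. In HET IgG 2 the effective size was 16767817 against 21849047 reads, which raises the CPM values of that library. Melanocyte lineage genes summed to at least 19700 CPM in every library. Skin, muscle and immune markers varied widely. The 18 keratinocyte markers summed to 2760 CPM in WT anti-CD40 replicate 2 and to 1290 CPM at the highest among HET anti-CD40 libraries, but to 24.0 CPM or less in every HET IgG library. The 4 libraries picked as standing apart, after the values were seen, were WT IgG 4, WT anti-CD40 2, HET anti-CD40 3 and HET IgG 2. WT IgG 4 was rich in neutrophil markers, and WT anti-CD40 2 in keratinocyte and neutrophil markers. HET anti-CD40 3 had the highest T cell score, and HET IgG 2 had 6.53% of reads from mitochondrial genes. They were not picked by a ranking, and others were extreme too. WT anti-PD1 1 had the highest fibroblast score (5.716) and HET anti-CD40 4 the highest muscle score (4.907). Library names carry an L number whose meaning the labels do not give. The combination libraries of HET hosts were all L8, WT anti-CD40 and WT combination libraries all L6, and WT IgG libraries all L5, so the L number and the group can be told apart only in part.

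Median levels of the 34 members ran from the zero-read value to 7.32. Values are deposited log2 CPM, on which a gene without a read sits at -3.64. A filter kept genes above log2 0 in at least 3 libraries, which 25 members passed, and 9 did not. Of those 9, 6 had a median within 1 of the zero-read value. The heat map of all members shows a band of 7 abundant genes with a narrow range and a larger set below it in which the same libraries are often bright.

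**Figure D1:**
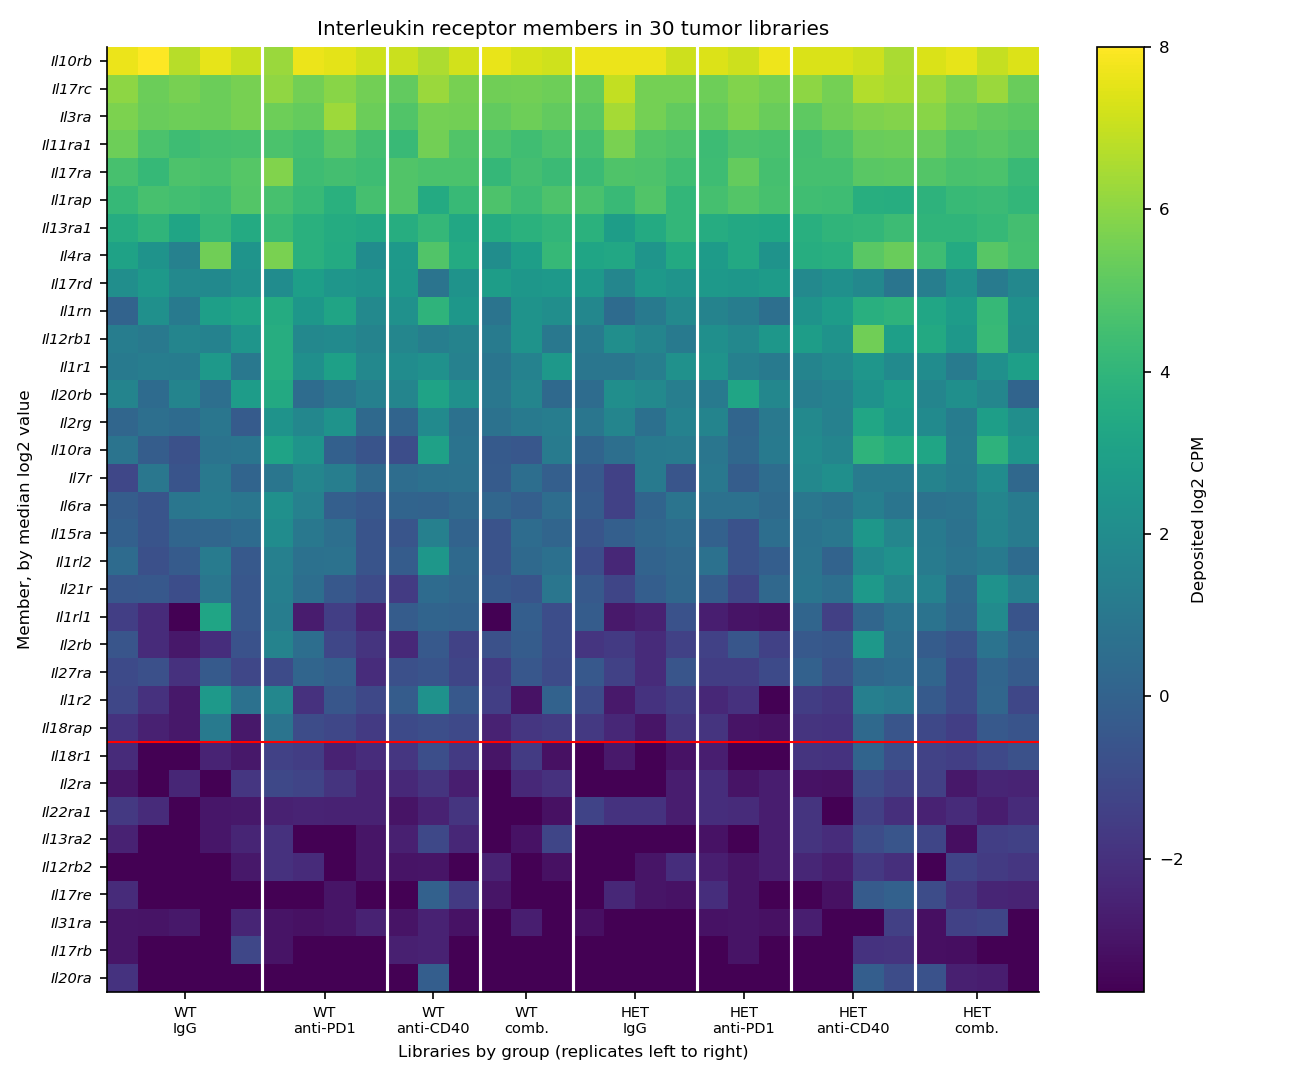
Deposited log2 CPM of the 34 members (rows, ordered by median) in 30 libraries (columns, grouped by genotype and treatment, white lines between groups). Members under the red line did not pass the filter on low values. Il10rb is the brightest row with a median of 7.32, and Il20ra the darkest with a median of -3.64.

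Il10rb, the chain shared by the receptors of IL-10, IL-22 and interferon-lambda, was the most abundant member, with a median log2 level of 7.32 and a range of 6.26 to 7.97. Its group means ran from 6.95 ± 0.33 (SD, n = 3) in WT anti-CD40 to 7.53 ± 0.27 (SD, n = 4) in HET IgG tumors. That span is wider than either SD, though no comparison given below reached an adjusted p under 0.05 for Il10rb. Per kilobase of exon its mean level was 42.2 CPM, the highest of all members. Its partner for IL-10, Il10ra, which binds the ligand, stood at 1.07 CPM per kilobase. The remaining class II chains were Il20rb, the IL-20 receptor beta chain, with a median log2 level of 1.63, and the scarce Il22ra1 and Il20ra.

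IL-17 receptor chains came next. Il17rc, which pairs with Il17ra to bind IL-17A and IL-17F, had a median log2 level of 5.59 and 21.3 CPM per kilobase, and Il17ra a median of 4.64 and 2.99 CPM per kilobase. Group means of Il17rc lay between 5.47 ± 0.04 (SD, n = 3) in WT combination and 6.18 ± 0.49 (SD, n = 4) in HET anti-CD40 tumors. Il17rd, a regulator of growth factor signalling also called Sef, reached a median of 2.30. Il17re, the receptor for IL-17C of epithelial cells, and Il17rb, which binds IL-25, were close to the zero-read value.

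Il3ra, the IL-3 receptor alpha chain, had a median log2 level of 5.42 and 15.3 CPM per kilobase. Il11ra1, which binds IL-11, had 4.74 and 6.53, Il13ra1, an IL-13 receptor chain, 3.78 and 3.75, and Il1rap, the accessory chain of the IL-1, IL-33 and IL-36 receptors, 4.37 and 1.84, where the first value is the median log2 level and the second the CPM per kilobase. These 4 genes with Il10rb, Il17rc and Il17ra had standard deviations over the 30 libraries of 0.35 to 0.43 on the log2 scale. Of genes with a like mean level, 57.5% to 84.6% varied less than each of them. Exons of Il11ra1 overlap those of Ccl27a, a skin chemokine gene on the opposite strand, and the counting is not stated to use strand, so reads of the pair cannot be told apart. The near copy Il11ra2 is a further gene with which its reads could be shared.

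Il4ra, the alpha chain for IL-4 and IL-13, had a mean level of 2.57 CPM per kilobase and varied widely, with a standard deviation of 1.12, above that of 98.4% of genes of like level. Its lowest value was 1.48 in WT IgG 3 and its highest 5.65 in WT anti-PD1 1. Il10ra varied from -0.89 to 3.93 with a standard deviation of 1.42, above 97.2% of genes of like level. The widest spread belonged to Il1rl1, the IL-33 receptor, at 1.72, and Il1r2, the IL-1 decoy, at 1.59. Both peaked in WT IgG 4, which alone held 24.8% of all Il1rl1 reads and 126 of the 699 Il1r2 reads, and in that library the 6 neutrophil markers summed to 66.0 CPM against 1.25 CPM in the lowest WT IgG library. The sum was higher in other groups, up to 224 CPM in WT anti-CD40 and 102 CPM in HET anti-CD40 tumors. The part of these markers in the result was not tested.

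Scarce members were read as counts. Il20ra had no read in 23 of 30 libraries and 79 reads in all. In HET anti-CD40 replicates 1 to 4 it had 0, 0, 22 and 14 reads, in HET combination replicates 1 to 4 it had 17, 3, 2 and 0, in WT anti-CD40 replicates 1 to 3 it had 0, 17 and 0, and WT IgG 1 had 4. Reads of this chain sat in a few libraries of both genotypes, and all 7 HET libraries without anti-CD40 lacked any. Il17re had 115 reads in 17 libraries, with 20 and 28 in HET anti-CD40 replicates 3 and 4, 14 in HET combination 1 and 19 in WT anti-CD40 2. The same 4 libraries lead both genes, and their keratinocyte scores (mean log2 of the markers) were 4.63, 4.89, 3.62 and 6.02, the 4 highest of all. The part of skin content in these reads was not tested.

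**Figure D2:**
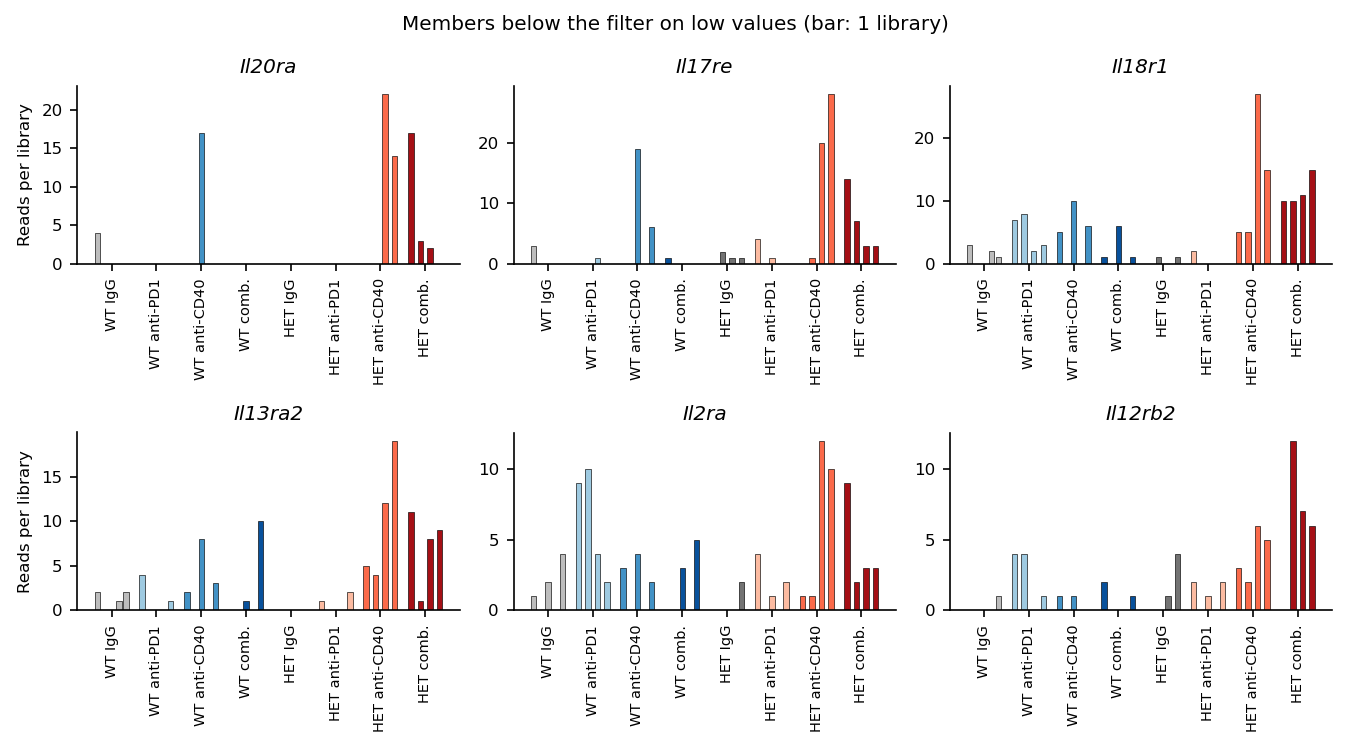
Reads per library (vertical axis, 1 bar a library) of 6 members below the filter, by group. Il20ra and Il17re reads stand in a few libraries, with 22 and 28 at most, while Il18r1 has at least 5 reads in every HET library given anti-CD40.

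Il18r1, which binds IL-18, had 157 reads in all and 1 library above log2 0. In HET anti-CD40 replicates 1 to 4 it had 5, 5, 27 and 15 reads, and in HET combination replicates 10, 10, 11 and 15. The 7 HET libraries without anti-CD40 held 0 to 2 reads each, so the HET groups with and without the agonist did not overlap. Such a lack of overlap held for 1.15% of genes that passed the filter, and was not computed for those below it. The rest of the 157 Il18r1 reads were in WT tumors. Il13ra2, the IL-13 decoy, had 40 reads over the HET anti-CD40 group and 29 over the combination group, against 0 in HET IgG and 3 in HET anti-PD1 tumors. The rest of the 106 Il13ra2 reads were in WT tumors. Il2ra, the CD25 chain of activated and regulatory T cells, totalled 99 reads with at most 12 in a library. Il12rb2, the IL-12 receptor chain of Th1 and NK cells, totalled 66, Il22ra1 88, Il31ra 53 and Il17rb 27. For Il12rb2 and Il17rb, exons overlap the table genes Serbp1 and Actr8 on the opposite strand.

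The design asks how checkpoint blockade and agonist anti-CD40 act in each host. A linear model with 1 mean per group was fitted with limma to all 15002 genes that passed the filter, with Benjamini-Hochberg adjustment over all of them. A member is called when its adjusted p is under 0.05. Between each treatment and IgG within a genotype, and between genotypes under each treatment, 0 of the 25 members passed, also with voom weights on the recovered reads. In these 10 comparisons 0.0% of all genes were called. Unadjusted p-values under 0.05 belonged to 11 members for anti-CD40 against IgG in HET tumors, all higher, where 14.9% of all genes had such a p and 8.12% were higher. For the combination against IgG in HET tumors there were 12, of which 11 were higher (background 9.81%, and 6.46% higher). Against IgG, WT anti-CD40 gave 0 such members (background 5.18%), WT combination 0 (0.413%), HET anti-PD1 0 (0.96%) and WT anti-PD1 4 (2.75%). Between genotypes there were 0 under IgG (background 2.07%), 3 under anti-PD1 (2.14%), 6 under anti-CD40 (3.83%) and 7 under the combination (5.56%).

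In HET tumors, pooled agonist anti-CD40 (8 libraries with it, alone or combined, against 7 without) went with higher levels of 7 of the 25 members tested and lower levels of 0, where 4.26% of all genes were called and 2.97% called higher. The 7 were the antagonist Il1rn, the gamma chain family members Il21r, Il15ra, Il7r and Il2rb, the IL-12 and IL-23 chain Il12rb1 and the IL-10 chain Il10ra. Their log2 differences ran from 1.36 to 1.97, which is 2.57-fold to 3.92-fold. The median over the 25 members was 1.12 and over all genes -0.01. A member can pass the filter through the libraries in which it is high, which favors a difference. Among the 7 this bears most on Il2rb, above log2 0 in only 5 libraries. They included HET anti-CD40 3 and 4 and HET combination 3. The fit was therefore repeated on all 18975 genes. In it 9 of 34 members were called, the added pair being Il18r1 and Il13ra2, against 4.3% of genes. That fit gave Il18r1 a log2 difference of 2.16 ± 0.33 (SE, limma adjusted p = 0.0058) and Il13ra2 1.79 ± 0.39 (SE, limma adjusted p = 0.016).

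**Figure D3:**
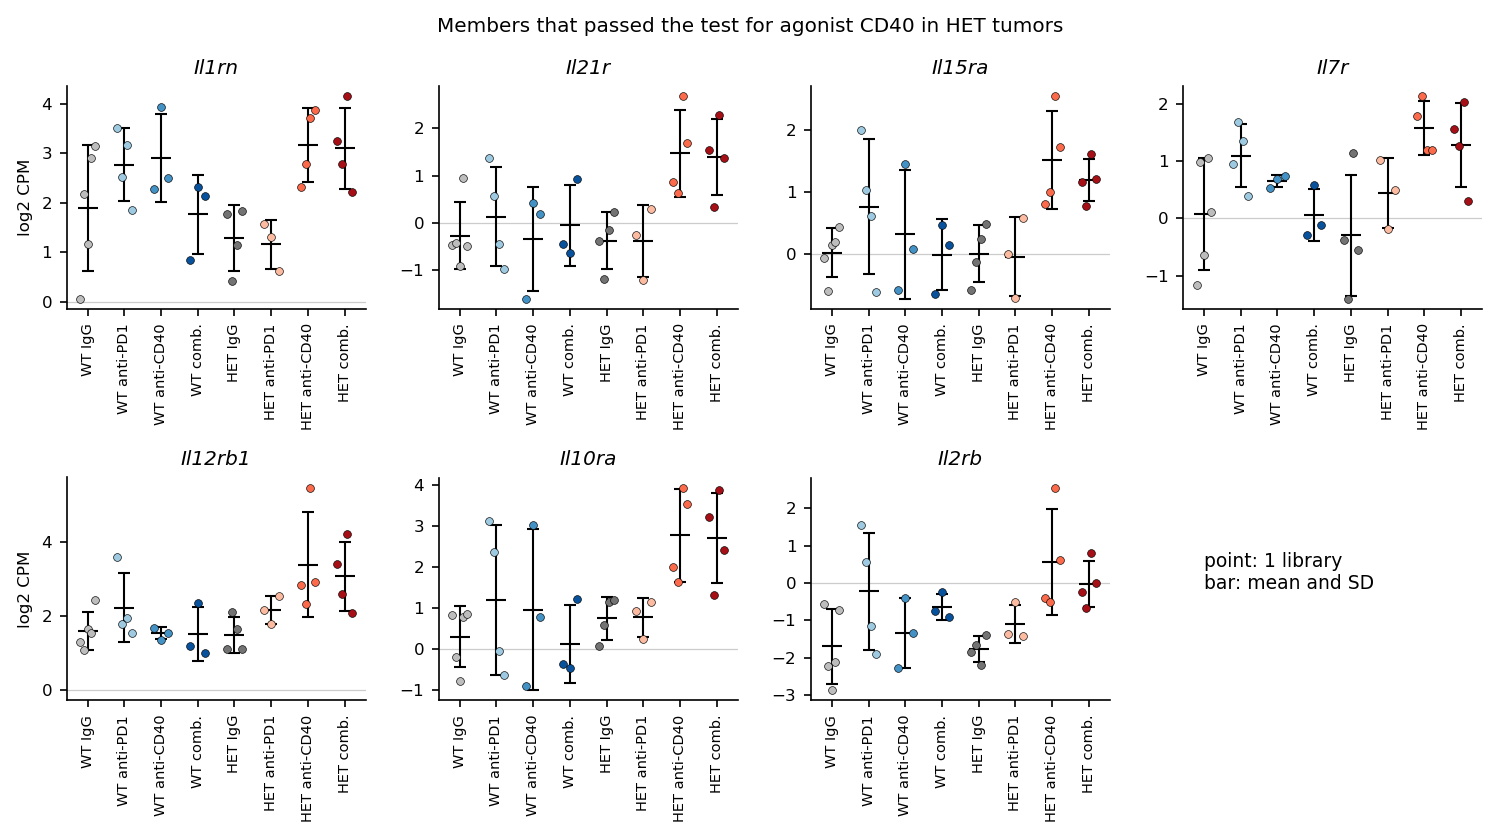
Deposited log2 CPM (vertical axes) of the 7 members called for pooled agonist anti-CD40 in HET tumors, by group. Points are libraries and bars the mean and SD. HET anti-CD40 and HET combination stand above HET IgG and HET anti-PD1 for each gene, with some overlap for Il7r, Il12rb1 and Il2rb, while WT libraries with anti-CD40 overlap those without.

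Il1rn had log2 levels of 2.32, 2.78, 3.72 and 3.87 in HET anti-CD40 and 3.25, 2.78, 4.16 and 2.21 in HET combination tumors, against 1.77, 0.41, 1.15 and 1.83 with IgG and 1.56, 1.31 and 0.61 with anti-PD1. Every HET library given the agonist was above every HET library without it. The pooled difference was 1.91 ± 0.42 (SE, limma adjusted p = 0.02). In WT tumors the antagonist was as high without the agonist, from 0.06 to 3.14 with IgG and from 1.85 to 3.52 with anti-PD1, and the pooled WT difference was not called.

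Il21r, the IL-21 receptor of lymphocytes, had log2 levels of 0.87, 0.63, 2.68 and 1.69 in HET anti-CD40 and 1.54, 0.34, 2.29 and 1.37 in HET combination tumors. Values without the agonist were -0.38, -1.19, -0.16 and 0.23 with IgG and -0.25, -1.20 and 0.30 with anti-PD1. The groups with and without anti-CD40 touched but did not overlap, at 0.34 and 0.30. Its pooled difference was 1.80 ± 0.42 (SE, limma adjusted p = 0.025).

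Il15ra, which presents IL-15 to neighbouring cells, had log2 levels of 0.80, 0.99, 2.54 and 1.72 in HET anti-CD40 and 1.16, 0.77, 1.61 and 1.21 in HET combination tumors, against -0.58, -0.13, 0.23 and 0.48 with IgG and -0.01, -0.71 and 0.57 with anti-PD1. The groups did not overlap, and the difference was 1.37 ± 0.35 (SE, limma adjusted p = 0.031). Il2rb, the signalling chain shared by the IL-2 and IL-15 receptors of T and NK cells, had log2 levels of -0.39, -0.51, 2.56 and 0.63 in HET anti-CD40 and -0.25, -0.66, 0.80 and -0.01 in HET combination tumors. Without the agonist it had -1.85, -1.65, -2.21 and -1.39 with IgG and -1.38, -0.51 and -1.41 with anti-PD1. HET anti-PD1 2 reached the level of 2 libraries given the agonist, and HET anti-CD40 3 alone held 25.2% of all Il2rb reads. The difference was 1.71 ± 0.50 (SE, limma adjusted p = 0.049).

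Il7r, the IL-7 receptor chain of naive and memory T cells, had log2 levels of 1.79, 2.14, 1.19 and 1.19 in HET anti-CD40 and 1.56, 1.26, 2.04 and 0.30 in HET combination tumors, against -0.38, -1.40, 1.15 and -0.55 with IgG and 1.02, -0.19 and 0.50 with anti-PD1. HET combination 4 fell among the libraries without the agonist, so the groups overlapped. The difference was 1.36 ± 0.36 (SE, limma adjusted p = 0.036). Il12rb1, the chain that pairs with Il12rb2 for IL-12 and with the IL-23 receptor for IL-23, had log2 levels of 2.83, 2.33, 5.46 and 2.91 in HET anti-CD40 and 3.41, 2.58, 4.21 and 2.09 in HET combination tumors. Without the agonist it had 1.10, 2.11, 1.66 and 1.11 with IgG and 2.17, 1.79 and 2.54 with anti-PD1. HET anti-CD40 3 stood apart with 24.9% of all its reads, and the groups overlapped. The difference was 1.40 ± 0.39 (SE, limma adjusted p = 0.043).

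Il10ra, expressed by most leukocytes, had log2 levels of 1.99, 1.64, 3.93 and 3.53 in HET anti-CD40 and 3.21, 1.31, 3.87 and 2.42 in HET combination tumors, against 0.09, 0.60, 1.15 and 1.20 with IgG and 0.93, 0.25 and 1.16 with anti-PD1. The groups did not overlap, and the difference was 1.97 ± 0.57 (SE, limma adjusted p = 0.047). Its abundant partner Il10rb had a difference of -0.27 ± 0.20 (SE) and was not called. Among the 25 members tested, Il4ra was the remaining one whose HET groups did not overlap, with values of 3.46 and above given the agonist and 3.44 and below without it. Its difference of 1.42 ± 0.52 (SE) was not called, with a limma adjusted p of 0.096. Groups did not overlap, with higher values under the agonist, for 1.15% of all genes that passed the filter.

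Outside these 7, members of 3 kinds came close to the threshold. The common gamma chain Il2rg had a log2 difference of 1.11 ± 0.35 (SE), Il27ra, which binds IL-27, 1.12 ± 0.35, and Il13ra1 0.60 ± 0.18, with limma adjusted p of 0.061, 0.062 and 0.052. In the IL-1 family, Il1rl1 had 2.52 ± 0.77 (SE), Il1rl2, the IL-36 receptor, 1.46 ± 0.46, and Il18rap, the accessory chain of Il18r1, 1.49 ± 0.51, with limma adjusted p of 0.059, 0.061 and 0.081. Il17rd and Il1rap had the most negative values, -0.81 ± 0.24 and -0.50 ± 0.18 (SE), with limma adjusted p of 0.053 and 0.099. The unadjusted p was under 0.05 for 18 of the 25 (background 26.6%), of which 16 were higher (background 13.1%) and 2 lower (background 13.5%). Differences of Il17ra (0.06 ± 0.18, SE), Il3ra (-0.02 ± 0.19) and Il20rb (-0.03 ± 0.44) were smaller than their errors.

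**Figure D4:**
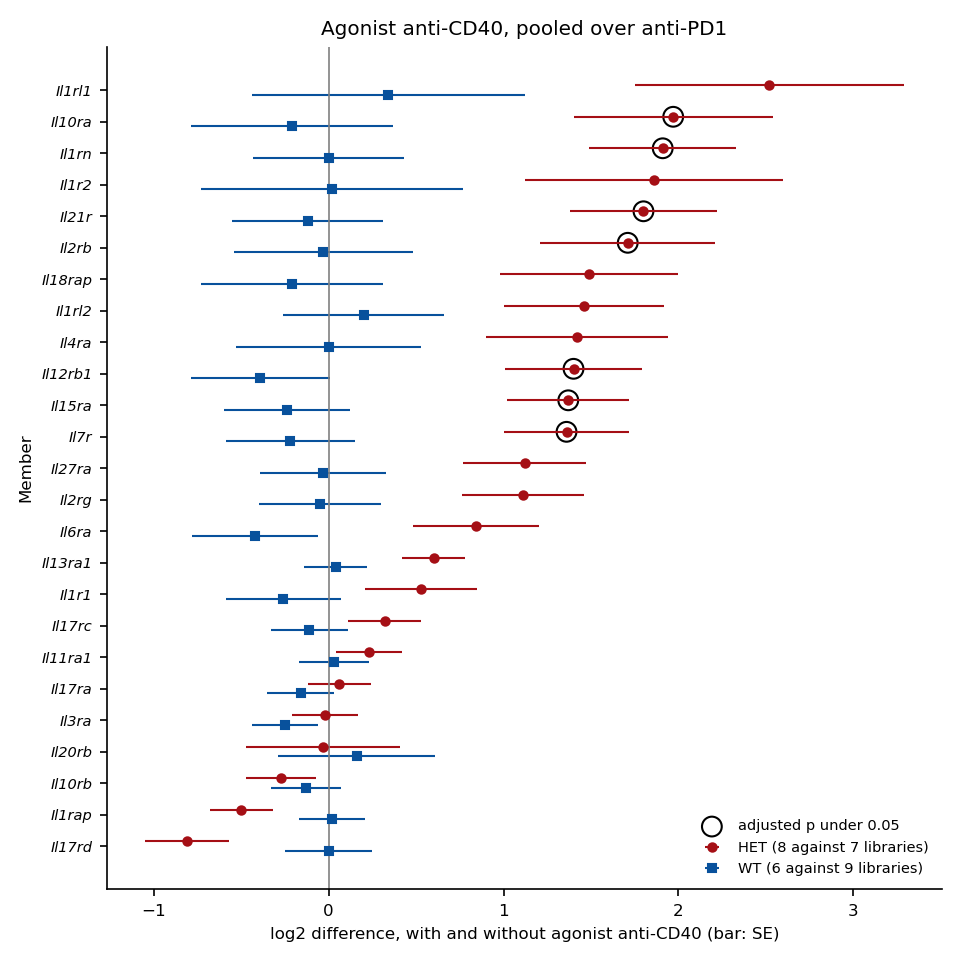
Log2 difference (horizontal axis, bar: SE) between tumors with and without agonist anti-CD40, for the 25 members that passed the filter, in HET (red) and WT (blue) hosts. Circled HET values have an adjusted p under 0.05. HET values reach 2.52 for Il1rl1, and WT values lie between -0.42 and 0.34.

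In WT tumors the same pooled comparison (6 libraries against 9) called 0 of 25 members and 0.0% of genes, and 0 members had an unadjusted p under 0.05 (limma, background 2.53%). The member median was -0.05. The genotype difference in the pooled effect, tested as an interaction, called 0 members and 0.0% of genes, with a lowest limma adjusted p of 0.31. Its unadjusted p was under 0.05 for 13 members, 12 of them toward a larger effect in HET hosts, against 7.63% of genes in either direction. A difference in response between hosts was therefore not shown.

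Among tumors given the agonist (8 HET against 6 WT), Il12rb1 was the 1 member called, 1.71 ± 0.41 higher in HET hosts (SE, limma adjusted p = 0.045), where 0.767% of genes were called. An unadjusted p under 0.05 belonged to 11 members (background 7.01%). Its WT values with the agonist were 1.68, 1.36 and 1.55 with anti-CD40 and 1.18, 2.35 and 1.01 with the combination. The HET values given above overlap these through HET anti-CD40 2 and HET combination 4. Il10ra (2.19 ± 0.59, SE) and Il21r (1.62 ± 0.44) had limma adjusted p of 0.07 and 0.073. The count became 0 without WT IgG 1, 2 or 3, WT anti-PD1 2 or 3, WT anti-CD40 1 or 3, WT combination 1 or 3, HET IgG 1 or 3, HET anti-PD1 1, 2 or 3, HET anti-CD40 3 or 4, or HET combination 1 or 3. It rose to 2 without WT anti-PD1 1 or 4, to 3 without HET anti-CD40 2 or HET combination 2 and to 6 without WT anti-CD40 2. Il6ra, the IL-6 binding chain, was the 1 member without overlap, from 0.73 to 1.64 in HET and from -0.10 to 0.50 in WT tumors (background 0.82% higher). The highest group mean lay in a HET group given anti-CD40 for 24 of the 34 members and 25.4% of all genes. Among those that passed the filter it did so for 17 of 25 members and 23.1% of genes.

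A test for any difference among the 8 groups called 0 members (limma, lowest adjusted p = 0.35) and 0.0267% of genes, with 9 members at an unadjusted p under 0.05 (background 7.69%). In WT tumors anti-PD1 gave unadjusted p-values under 0.05 for 4 members, all higher (background 1.76%), led by Il2rg with a difference of 1.33 ± 0.45 (SE, limma adjusted p = 1.0) and Il1r1 with 1.16 ± 0.42. Under anti-PD1, Il1rn was 1.61 ± 0.62 lower in HET than in WT tumors (SE, limma adjusted p = 1.0), from 0.61 to 1.56 against 1.85 to 3.52. The difference turned to 0.28 once the L number was in the model, and HET anti-PD1 libraries were all L7 and WT anti-PD1 libraries L5 or L6. Under the combination Il17rd had a mean log2 level of 1.66 in HET and 2.66 in WT tumors (limma adjusted p = 0.67).

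The HET count depended on single libraries. It was 0 without HET anti-PD1 2, HET anti-CD40 3, HET anti-CD40 4 or HET combination 3, 1 without HET IgG 2 or HET combination 1, and 2 without HET IgG 1 or HET anti-PD1 3. It was 3 without HET IgG 3 or HET anti-PD1 1 and 4 without WT anti-CD40 3. It rose to 11 without WT anti-CD40 1 or HET combination 2, to 13 without WT anti-CD40 2 or HET IgG 4 and to 14 without HET anti-CD40 2. Without the 4 libraries that stood apart 0 members and 11 genes were called, and with the L number, the keratinocyte and muscle scores, or the T cell score in the model 0 members and 0 genes. The differences themselves stayed positive without any single library, for example 1.20 to 1.53 for Il15ra and 1.05 to 1.57 for Il12rb1. With the T cell score as a covariate, which was added after the values were seen, those of Il15ra, Il10ra and Il2rb turned to -0.10, -0.67 and -0.40.

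HET libraries with and without the agonist share the L numbers 7 and 8, but L8 holds only 1 HET library without it. Within L7 the 3 anti-CD40 libraries could be set against 5 with IgG or anti-PD1. The log2 difference was 1.93 for Il1rn, 1.89 for Il21r, 1.45 for Il15ra, 1.98 for Il2rb and 1.70 for Il10ra, each with a two-sided exact permutation p of 0.018, the smallest this design allows. Il12rb1 had 1.48 (exact permutation p = 0.036) and Il7r 1.49 (exact permutation p = 0.054). These p-values are not adjusted, and 25 members were compared in this way. Il13ra1, Il1rl1, Il27ra and Il1r2, which were not called in the pooled comparison, also had an exact permutation p of 0.018. Adjusted over the 25 members, an exact permutation p of 0.018 became 0.05. The share of all genes at this p was not computed. The 8 libraries are part of the pooled comparison that called the 7 genes, so the values are no separate support for it.

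Skin, muscle, stromal and immune markers moved with the receptors. In HET tumors 3 of 4 tested T cell markers, 3 of 3 cytotoxic and NK markers, 2 of 10 macrophage markers, 3 of 10 fibroblast markers and 5 of 15 muscle markers were called higher for the pooled agonist. So were 4 of 5 mast cell, 2 of 3 dendritic, 1 of 3 B cell, 3 of 6 adipocyte and 1 of 18 keratinocyte markers, and 0 of 5 neutrophil, 0 of 8 endothelial and 0 of 8 melanocyte markers. Of all genes 2.97% were called higher. The list median of the log2 difference was 3.47 for keratinocyte and 3.01 for muscle markers. It was 2.56 for T cell, 1.51 for fibroblast, 1.48 for macrophage and 1.39 for neutrophil markers. Every tested marker of these lists was higher. The remaining medians ran from 1.07 to 2.76, except 0.19 for endothelial and -0.2 for melanocyte markers. Over all genes the median was -0.01. The filter kept only 4 of 12 listed T cell markers and 3 of 8 listed cytotoxic and NK markers. A scarce marker can pass it through the libraries in which it is high, so these counts and medians are no separate support. The 11 T cell markers summed to 7.04 to 32.7 CPM in HET anti-CD40 and 7.95 to 17.7 in HET combination tumors, against 2.95 to 10.7 with IgG and 4.92 to 6.08 with anti-PD1. The 10 macrophage markers summed to 225 to 776 and 192 to 728 CPM with the agonist, against 127 to 201 and 123 to 159 without it. The 18 keratinocyte markers summed to 12.3 to 1290 and 14.9 to 492 CPM with it, against 11.3 to 24.0 and 14.6 to 27.5 without. For the 15 muscle markers the sums were 47.8 to 668 and 88.0 to 382, against 8.29 to 405 and 14.6 to 55.3. Cd28 of the T cell list was absent from the expression table, and no other listed T cell or macrophage marker was without a read in any group. The part of cell content in the receptor differences was not tested beyond the fits with scores given above.

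Across the 30 libraries most members followed a marker score. Il10ra and the macrophage score had a Pearson r of 0.94 and a Spearman rho of 0.91, each with a permutation p of 1e-05, the smallest 100000 permutations can give (adjusted 5.2e-05 and 6.2e-05 over the 125 relations computed). The r was 0.93 without the 2 libraries farthest from the median score, 0.89 after removal of group means, and 0.83, 0.94, 0.98 and 0.98 within L5 to L8. No member belongs to a marker list. Il21r (r = 0.91, rho = 0.92), Il4ra (0.89, 0.90) and Il2rg (0.86, 0.89) also followed the macrophage score, with the same adjusted permutation p of both coefficients. In these 3 genes r without the 2 farthest libraries was 0.91, 0.87 and 0.86, and the lowest r within an L number 0.83, 0.82 and 0.67.

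Il15ra and Il2rb had their highest r with the T cell score, 0.90 and 0.88, and rho of 0.85 and 0.86 (same permutation p). With the macrophage score their r was 0.84 and 0.76, and Il10ra, Il21r and Il2rg had r of 0.89, 0.85 and 0.83 with the T cell score. Differences between the scores were not tested. Without the 2 farthest libraries r was 0.86 and 0.83. Within L5 to L8 r was 0.80, 0.95, 0.95 and 0.98 for Il15ra and 0.94, 0.69, 0.92 and 0.98 for Il2rb. Il12rb1 also had its highest r with the T cell score, 0.72 (rho = 0.53, adjusted permutation p = 8.3e-05 and 0.0051), yet within L5 to L8 its r was 0.55, -0.02, 0.95 and 0.86, and without the 2 farthest libraries 0.51. Il7r tracked its best score, that of macrophages, less closely, with r of 0.55 (rho = 0.60, adjusted permutation p = 0.0031 and 0.0016), 0.44 without the 2 farthest libraries, 0.27 after removal of group means and 0.67, 0.09, 0.49 and 0.62 within L5 to L8.

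**Figure D5:**
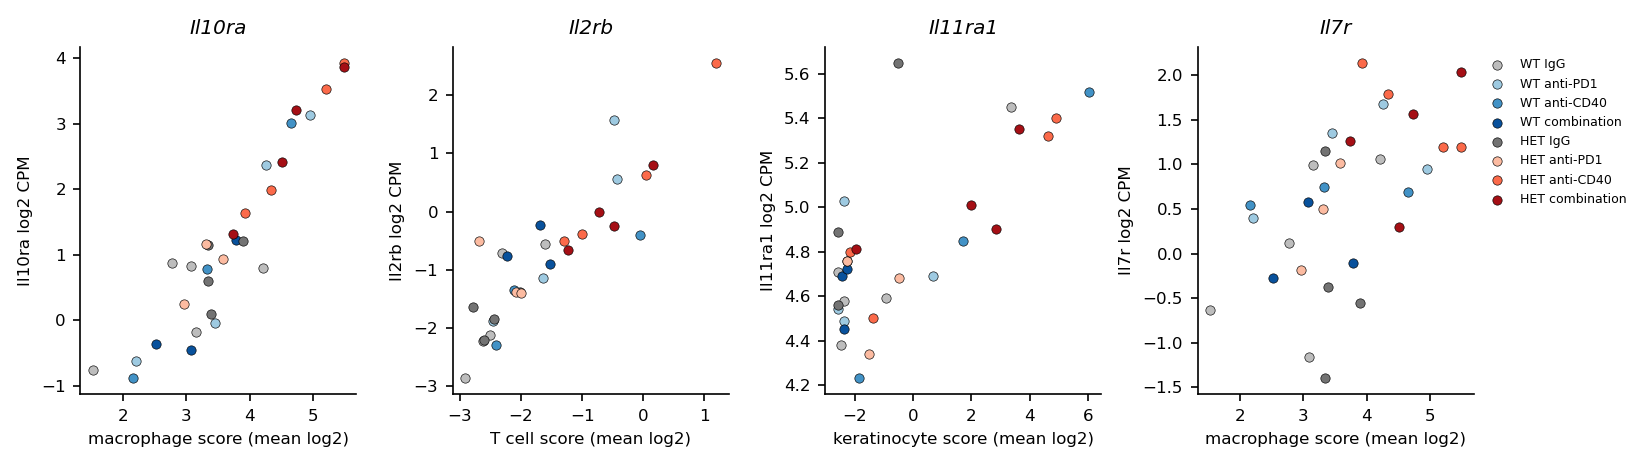
Log2 CPM of 4 members (vertical axes) against a marker score (horizontal axes, mean log2 of the markers), 1 point a library, colored by group. Il10ra lies close to a line with the macrophage score (r = 0.94), Il2rb with the T cell score (r = 0.88), Il11ra1 rises where the keratinocyte score is high (r = 0.74), and Il7r is scattered (r = 0.55). Reads of Il11ra1 may include those of the overlapping gene Ccl27a.

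Other members, the called Il1rn (r = 0.72 with the fibroblast score) among them, were closest to barrier or stromal scores. Most called members followed these scores too. With the keratinocyte and muscle scores r was 0.68 and 0.64 for Il10ra, 0.62 and 0.65 for Il15ra, and 0.52 and 0.66 for Il21r. It was 0.55 and 0.56 for Il2rb, 0.51 and 0.61 for Il12rb1, 0.46 and 0.3 for Il1rn and 0.17 and 0.26 for Il7r. Il11ra1 and Il17rc had their highest r with the keratinocyte score, 0.74 (rho = 0.56) and 0.69 (rho = 0.68), with adjusted permutation p of 0.00012 and 0.003 for Il11ra1 and 0.00032 and 0.0002 for Il17rc. Both stayed at 0.64 without the 2 farthest libraries, and the lowest r within an L number was 0.49 for Il11ra1 and 0.64 for Il17rc. Reads of Il11ra1 cannot be told apart from those of the overlapping skin gene Ccl27a. Their part in its r was not tested. Il13ra1, Il1r1, Il1rl2 and Il18rap were closest to the fibroblast score, with r of 0.80, 0.77, 0.82 and 0.80 and rho of 0.82, 0.80, 0.84 and 0.82 (adjusted permutation p of 5.2e-05 and 6.2e-05). Without the 2 farthest libraries these were 0.77, 0.73, 0.83 and 0.75, and the lowest r within an L number was 0.60, 0.60, 0.18 (Il1rl2 in L8) and 0.56. In all, r was at least 0.5 with the macrophage score for 18 of 25 members and with the T cell score for 17. With the fibroblast score it was so for 16, with the keratinocyte score for 11 and with the muscle score for 8. The share of all genes with such an r was not computed, so these counts have no background. Il10rb, Il1rap and Il17rd had a negative r with every score compared. With the keratinocyte score their r was -0.4, -0.67 and -0.72.

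Genes that work with the receptors moved in part. Of 40 listed interleukin ligands 22 were in the table and 9 passed the filter. Il33, an alarmin of barrier cells and the ligand of Il1rl1, was the 1 called for the pooled agonist in HET tumors, at 1.54 ± 0.45 (SE, limma adjusted p = 0.049), and the ligand list median was 0.88. Il15, the ligand of Il15ra, had 0.17 ± 0.16 (SE). Of 10 partner chains outside the naming rule 3 were higher: Il18bp, the soluble IL-18 antagonist (1.60 ± 0.30, SE, limma adjusted p = 0.017), the beta chain Csf2rb shared by the IL-3, IL-5 and GM-CSF receptors (1.47 ± 0.39, 0.035), and Csf2rb2, the mouse beta chain for IL-3 (1.99 ± 0.44, 0.022). The last 2 are near copies, so reads may be split between them. Among 22 signal transducers tested, 0 were called lower, the feedback inhibitor Socs1 was higher (1.42 ± 0.34, SE, limma adjusted p = 0.027), and the list median was -0.13.

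Several members are neighbours in the genome (mm10, GENCODE annotation). Il1r2, Il1r1, Il1rl2, Il1rl1, Il18r1 and Il18rap lie in this order within 478 kb of chromosome 1, from 40074079 to 40551705. Il4ra and Il21r are 24.0 kb apart on chromosome 7 and both followed the macrophage score. Il17re ends 0.7 kb before Il17rc starts on chromosome 6, but their mean levels were 0.024 and 21.3 CPM per kilobase. Il2ra and Il15ra, 12.1 kb apart on chromosome 2, had 0.022 and 0.36 CPM per kilobase. Of the remaining called members, Il1rn is on chromosome 2, Il12rb1 on 8, Il10ra on 9, and Il7r and Il2rb on 15.

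RefSeq promoters (GRCm38.p6, 250 bases before to 50 after a start) were matched by symbol for 28 of 34 members, 36 promoters in all. They were searched on both strands for TTCNNNGAA, the GAS element that STAT dimers bind and a sequence that reads the same on both strands, and for GAAA, any 2 bases and GAAA again, a core of the interferon-stimulated response element. GAS letters stood in 13.9% of member promoters and 8.3% of all 32851, and the second motif in 2.8% and 3.4%. The 5 members with GAS letters were Il12rb2, Il18r1, Il1r2, Il31ra and Il7r. Il7r and Il18r1 are shown because they were higher in HET tumors given the agonist, Il18r1 in the fit on all genes, and carry these letters. The 250 bases before the start of Il7r (chr15:9529877-9530126, minus strand) and before the third annotated start of Il18r1 (chr1:40465756-40466005, plus strand) read as follows, with the motif in capitals.
Il7r: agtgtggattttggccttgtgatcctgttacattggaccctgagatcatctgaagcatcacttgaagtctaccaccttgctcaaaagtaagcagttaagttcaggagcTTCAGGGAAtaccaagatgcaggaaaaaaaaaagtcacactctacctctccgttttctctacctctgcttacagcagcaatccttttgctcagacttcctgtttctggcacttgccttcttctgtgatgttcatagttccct
Il18r1: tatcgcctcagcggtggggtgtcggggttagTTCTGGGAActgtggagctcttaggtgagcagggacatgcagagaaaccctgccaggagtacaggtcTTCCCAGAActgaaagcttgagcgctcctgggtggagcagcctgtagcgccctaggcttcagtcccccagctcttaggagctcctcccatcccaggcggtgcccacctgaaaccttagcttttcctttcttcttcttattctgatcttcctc
The match in Il7r begins 142 bases before the start and those in Il18r1 219 and 152 bases before it. The other 2 annotated starts of Il18r1 had no match, and the windows of Il1rn, Il21r and Il15ra held neither motif. Il10ra, Il12rb1 and Il2rb were not among the members matched. A link between these letters and the difference under the agonist was not tested.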

How the data were processed

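The authors' deposited table holds log2 CPM values, made with STAR on mm10 and edgeR, per the submitters' processing notes, which name no versions. Filters, strand setting and annotation are not given in the sources used here. Reads were recovered from the log2 values; 100.0% came out whole within 0.01 reads in every library, and a gene without a read sits at -3.64.

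Genes above log2 0 in at least 3 libraries (15002 of 18975) were fitted with 1 mean per group in limma 3.58.1 (R 4.3.3, intensity trend), with Benjamini-Hochberg adjustment over all of them at 0.05. The fit was checked on simulated data. Marker scores are mean log2 values. Lengths come from GENCODE vM21 (mm10), promoters from RefSeq. Named in full were the 2 highest members of each family, the 2 with the lowest p under 0.05 in each comparison, and those with an F test under 0.05; others were added after their values were seen. Members and lists were chosen with earlier results of these data known. Alternatives changed the filter, scaling, pseudocount, weights (voom), covariates and libraries. Part of the result for the signal transducer list is not reported here.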

Additional observations from a re-analysis of the deposited data

Results flagged for a closer look

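In 100 groups of 4 or 5 libraries, 20 members were searched for a library far from its group, and 5 were found; chance flags about 1 in 20 groups. Of these, 3 lie in WT IgG 4: Il1r1 at a log2 level of 2.62 with the others at 1.03 to 1.30, Il18rap at 1.09 with the others at -2.91 to -1.92, and Il21r at 0.95 with the others at -0.91 to -0.43. Il17ra stood at 5.81 in WT anti-PD1 1, against 4.37 to 4.50. Il10rb stood low in HET IgG 4, at 7.13 against 7.65 to 7.68.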

How the results depend on the processing

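Of the 7 members called for pooled anti-CD40 in HET tumors, 4 were called with a filter of log2 above 0 in at least 15 libraries, 0 with the L number, 0 with the keratinocyte and muscle scores, and 0 with the T cell score or without 4 libraries that stood apart, the last 2 settings chosen after seeing the data. Leaving out 1 library gave 0 to 14. With a replicate block 3 were called (Il12rb1, Il1rn and Il21r). The numbers did not pair the samples: deviations of same-numbered libraries had a median r of -0.02 over 94 pairs, and of the others 0.01 over 298. For HET against WT among tumors given the agonist, the count of 1 became 0 with the 15-library filter, voom, equal medians, the L number, the keratinocyte and muscle scores or the T cell score, and 0 to 6 without 1 library, as given above. With the replicate block it stayed at 1. The 13 comparisons with 0 members called stayed at 0 in the 40 settings.

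Single members changed direction in 17 of 1714 recomputed values, 0 of them among 1290 that left out 1 library. With the L number these were Il1rn between genotypes under anti-PD1 (0.28) and the genotype differences of Il15ra (-0.25), Il10ra (-0.39) and Il2rb (-0.35). With the T cell score the pooled HET values were -0.10 for Il15ra, -0.67 for Il10ra and -0.40 for Il2rb. Against IgG, HET anti-CD40 gave -0.16 for Il15ra, -0.01 for Il21r, -0.98 for Il10ra and -0.04 for Il2rb, and HET combination -0.25, -0.63 and -0.31 for Il15ra, Il10ra and Il2rb. The genotype differences became -0.26 for Il10ra and -0.21 for Il2rb, and HET against WT among treated tumors -0.10 for Il2rb. The cause was not tested. The 9 members below the filter had at most 28 reads in a library, so small differences in them were not detectable at this depth.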
